A study of Homo sapiens with 29 samples.

Results

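Matrix metalloproteinases (MMPs) and their inhibitors were followed in LHCN-M2 myoblasts after knockdown of the transcription factor ZNF148. The 10 genes were MMP1, MMP2, MMP3, MMP9, MMP10, MMP11, MMP14, TIMP1, TIMP2 and TIMP3, of 22439 genes that RefSeq accessions named on the array. They were listed by name, and MMP3 was among them because it is a known ZNF148 target. Each had 1 probe. The probes of 9 members were tested, and that of MMP10 was too dim to test.

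LHCN-M2 is a human myoblast line immortalized with telomerase and CDK4, so all groups come from 1 selected clone. Cells received 20 nM ZNF148 siRNA (siZNF148) or 20 nM nontargeting siRNA (siControl). They were harvested subconfluent after 24 h in growth media, confluent after 48 or 96 h in growth media, or after 48 or 96 h in differentiation media. RNA was hybridized to 29 1-colour Agilent arrays. The 10 groups had 3 arrays each, apart from siControl at 96 h in growth media with 2. The hours in differentiation media may count from the change of media, so the 2 media at the same hour may differ in time since transfection.

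MMPs are zinc-dependent proteases, secreted or bound to the cell membrane, that cut proteins of the extracellular matrix. Most are made as inactive proenzymes, and tissue inhibitors of metalloproteinases (TIMPs) block the active site of the mature enzymes. In skeletal muscle they are known for matrix remodelling during regeneration, when satellite cells migrate and fuse. ZNF148 is a zinc finger protein that binds GC-rich promoter sequence. The arrays measured RNA, and neither protein nor enzyme activity was measured.

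Promoters of 5 of the 10 members were found in the RefSeq promoter table (GRCh38.p14), which gives 300 bases, 250 of them before the start site. These were MMP10, MMP11, MMP14, TIMP1 and TIMP3. The sequences below are the 250 bases before the start site, 5′ to 3′ on the gene's own strand. They are shown because the genes differ in motif, and MMP11, TIMP3 and MMP14 also in response to the knockdown. The response of MMP10 was not tested. Capitals mark the motifs searched on both strands, the AP-1 motif (TGANTCA), the GC box (GGGCGG), the TATA box (TATAAA) and a run of G (GGGGGG). MMP11 is at chr22:23772599-23772848 (+), TIMP3 at chr22:32801455-32801704 (+), MMP14 at chr14:22836335-22836584 (+) and MMP10 at chr11:102780629-102780878 (-).
MMP11: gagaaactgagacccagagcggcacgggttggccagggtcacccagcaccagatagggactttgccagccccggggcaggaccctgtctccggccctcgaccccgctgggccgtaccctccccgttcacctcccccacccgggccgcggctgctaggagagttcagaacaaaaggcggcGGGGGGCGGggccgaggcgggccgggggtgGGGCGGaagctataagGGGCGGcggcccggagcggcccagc
TIMP3: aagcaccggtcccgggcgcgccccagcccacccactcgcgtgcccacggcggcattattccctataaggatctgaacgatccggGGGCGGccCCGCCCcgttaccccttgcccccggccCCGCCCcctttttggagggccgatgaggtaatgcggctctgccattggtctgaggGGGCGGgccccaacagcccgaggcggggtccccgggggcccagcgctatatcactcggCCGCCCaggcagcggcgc
MMP14: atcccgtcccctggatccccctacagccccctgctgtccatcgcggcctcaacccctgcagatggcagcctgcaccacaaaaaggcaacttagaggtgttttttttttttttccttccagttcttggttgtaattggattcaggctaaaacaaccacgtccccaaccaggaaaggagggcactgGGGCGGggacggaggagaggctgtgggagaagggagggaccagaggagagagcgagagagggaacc
MMP10: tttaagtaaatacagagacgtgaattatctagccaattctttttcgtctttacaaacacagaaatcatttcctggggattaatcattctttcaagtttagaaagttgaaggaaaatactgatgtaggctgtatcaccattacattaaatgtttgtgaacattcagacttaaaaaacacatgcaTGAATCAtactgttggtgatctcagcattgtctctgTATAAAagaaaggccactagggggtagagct

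The MMP11 window held 4 GC boxes, 3 of them before the start site at -68, -41 and -25, and 1 G run at -71 that overlaps the first of them. In the TIMP3 window there were 5 GC boxes, in the TIMP1 window 2 and in the MMP14 window 1. The MMP10 window held none, and instead an AP-1 motif at -67 and a TATA box at -31. Over all 35116 promoters of the table, 45% held a GC box, 18.8% a G run, 11.5% a TATA box and 7.71% an AP-1 motif. GC content before the start site was 73.2% for MMP11, 72.4% for TIMP3, 64.8% for TIMP1, 56.8% for MMP14 and 34.4% for MMP10. Genes whose window held a GC box moved both ways with siZNF148, MMP11 and TIMP3 up and MMP14 and TIMP1 down. A motif match is a description of the sequence and not of binding.

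Values are log2 of the background-subtracted signal after quantile normalization, and changes are differences of log2 means with the standard error (SE) of the fit. Called genes had a Benjamini-Hochberg adjusted p below 0.05 over all 38714 tested probes and moved by more than 2-fold (limma, two-sided). The share of probes well above background was 41.5% to 56.5% by array, and precision is limited by the number of arrays. ZNF148 itself was lower in all 5 knockdown comparisons, with log2 changes from -2.74 to -1.53, and its siControl and siZNF148 arrays did not overlap in any of them. The myoblast markers MYOD1, MYF5, DES, NCAM1 and CDH15 were well above background on all 29 arrays, whereas PAX7 was on 20. The array of siControl at 48 h in growth media, replicate 1, stood apart from the other arrays of its group. Its mean log2 signal over 8 myotube markers was 15.04, against 7.36 and 7.33 on the other arrays, and knockdown changes at 48 h in growth media are also given without it. The SE of a gene pools its spread over all 10 groups, so this array also entered the SE of comparisons it is not part of. That matters most for MMP9 and MMP11, whose SD in its group was 1.72 and 1.83.

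Knockdown moved 2 of the 9 tested members at 24 h and 7 or 8 of them at each later harvest. At 24 h, 1 member was higher and 1 lower, and of all 18398 genes with a tested probe 5.54% were called, 2.46% higher and 3.08% lower. With the adjusted p alone, 4 members and 32.5% of all genes passed at 24 h. At 48 h in growth media, 2 members were higher and 6 lower, against 23.9% of all genes (11.7% higher, 12.2% lower). At 96 h there, 2 were higher and 5 lower, against 24.7% of all genes (12.3% higher, 12.4% lower). In differentiation media 3 were higher and 5 lower at 48 h, against 32.4% (15.1% higher, 17.3% lower), and 4 were higher and 4 lower at 96 h, against 23.3% (10.5% higher, 12.8% lower). The median change of the members was -0.12, -1.50, -1.08, -1.68 and -0.95 in that order, while the median over all genes lay between -0.06 and -0.00. The siControl and siZNF148 arrays were fully separate for 7 of the 9 members at 24 h (55.6% of all genes) and for 9 of 9 in each later comparison, where 62.9%, 75.2%, 70.2% and 65.6% of all genes were separate. MMP2, MMP3, MMP14 and TIMP1 fell and MMP9 and MMP11 rose in all 4 later comparisons. Without the siControl array that stands apart, 2 members were again higher and 6 lower at 48 h in growth media, against 12.9% and 14.1% of all genes. The changes there were then -2.29 for MMP1, -1.74 for MMP2, -2.39 for MMP3, -2.03 for MMP14, -1.17 for TIMP1, -1.63 for TIMP2 and 0.34 for TIMP3, and those of MMP9 and MMP11 follow with their values.

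**Figure D1:**
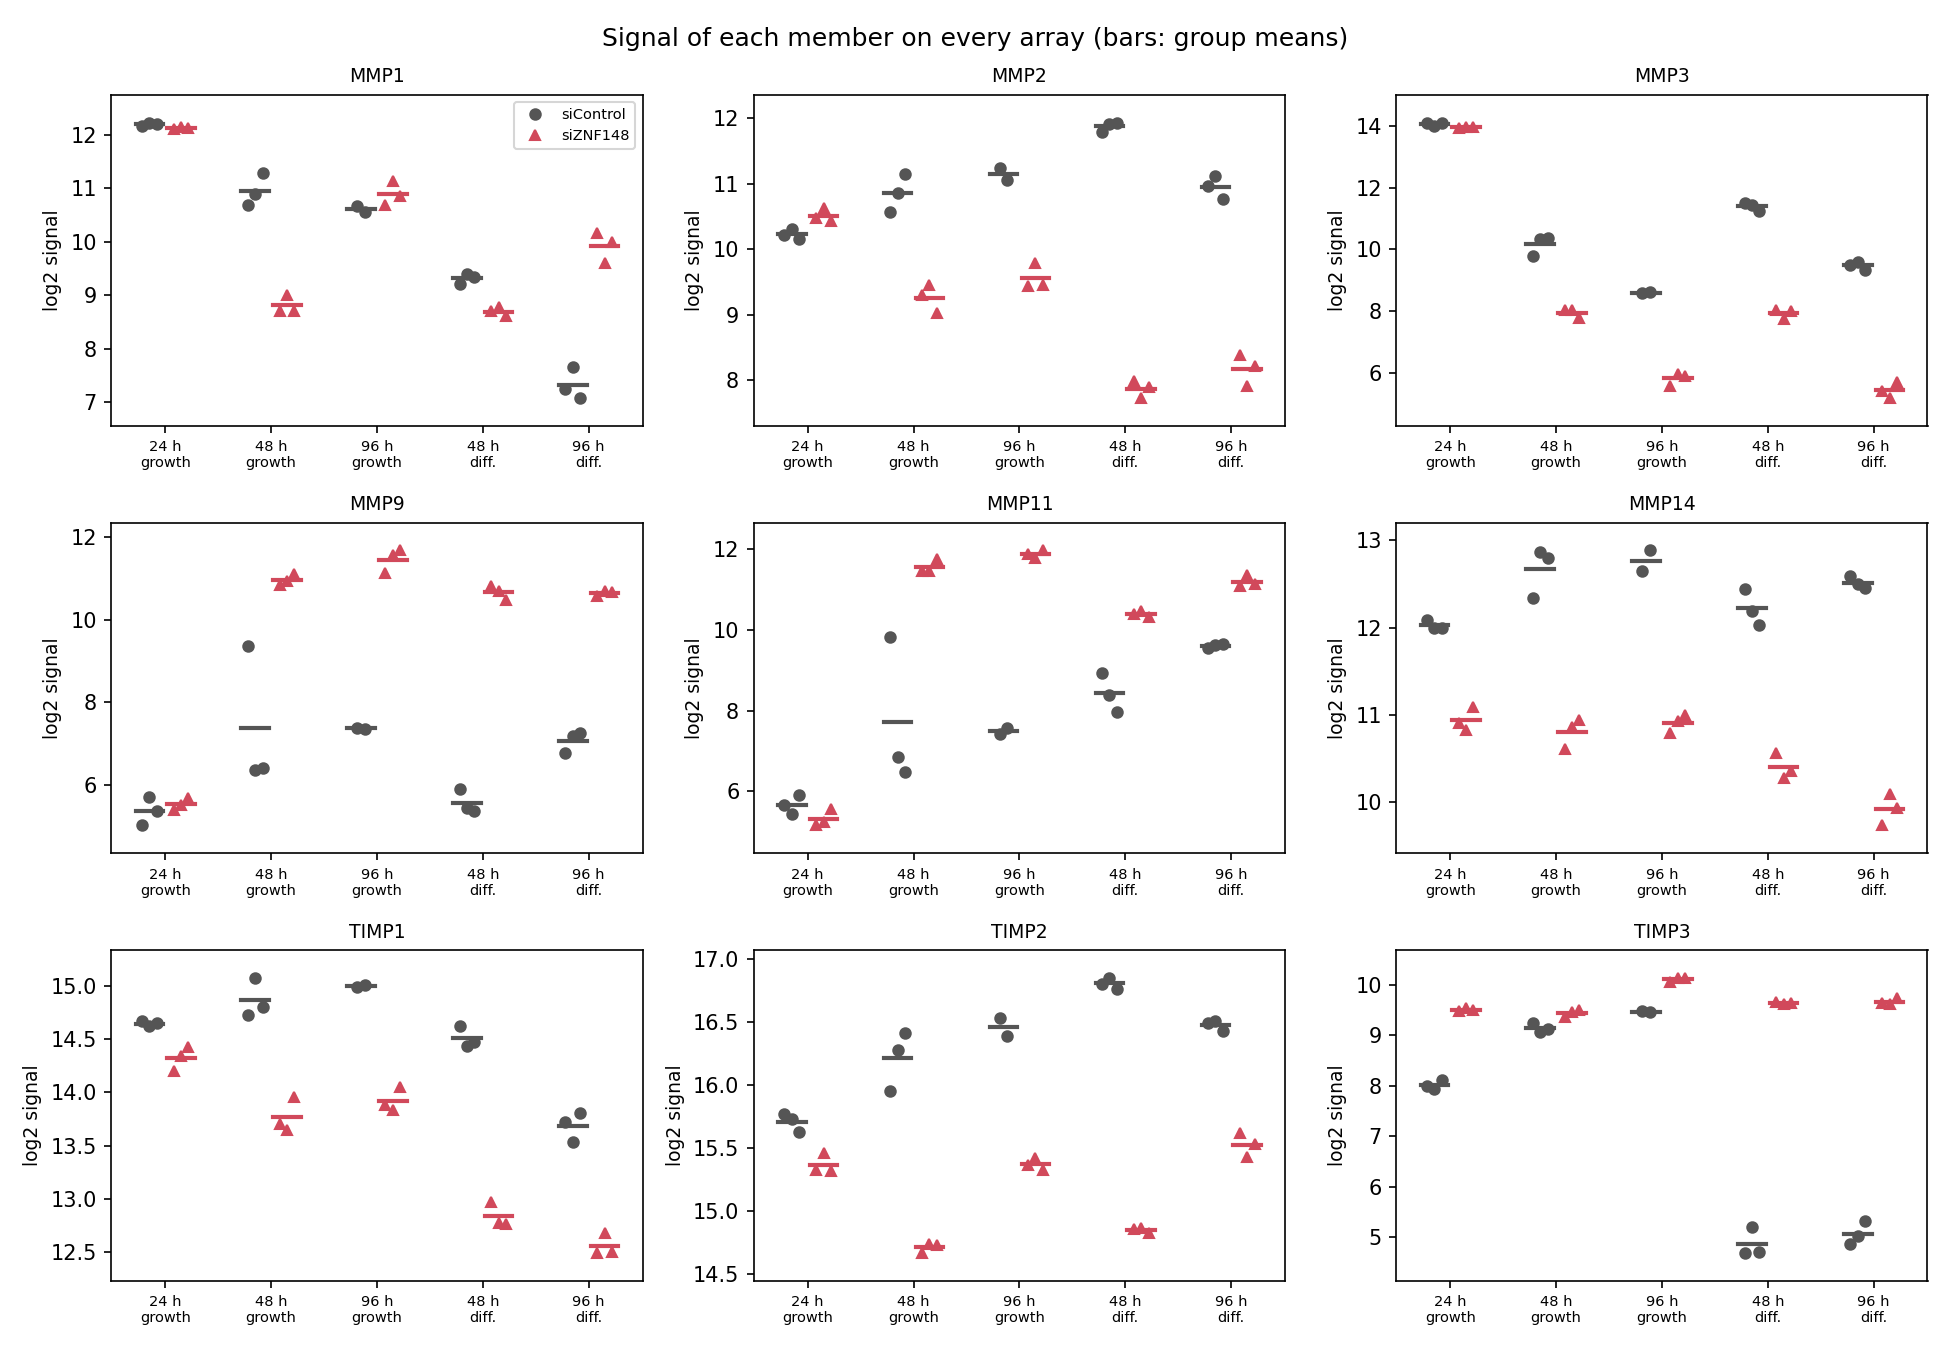
Log2 signal (vertical axis, a separate scale in each panel) of the 9 tested members on each of the 29 arrays, by harvest and media (horizontal axis), with siControl as grey circles, siZNF148 as red triangles and horizontal bars at group means. MMP9 and MMP11 lie higher and MMP2, MMP3 and MMP14 lower with siZNF148 from 48 h on, and TIMP3 is lowest in siControl cells in differentiation media.

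**Figure D2:**
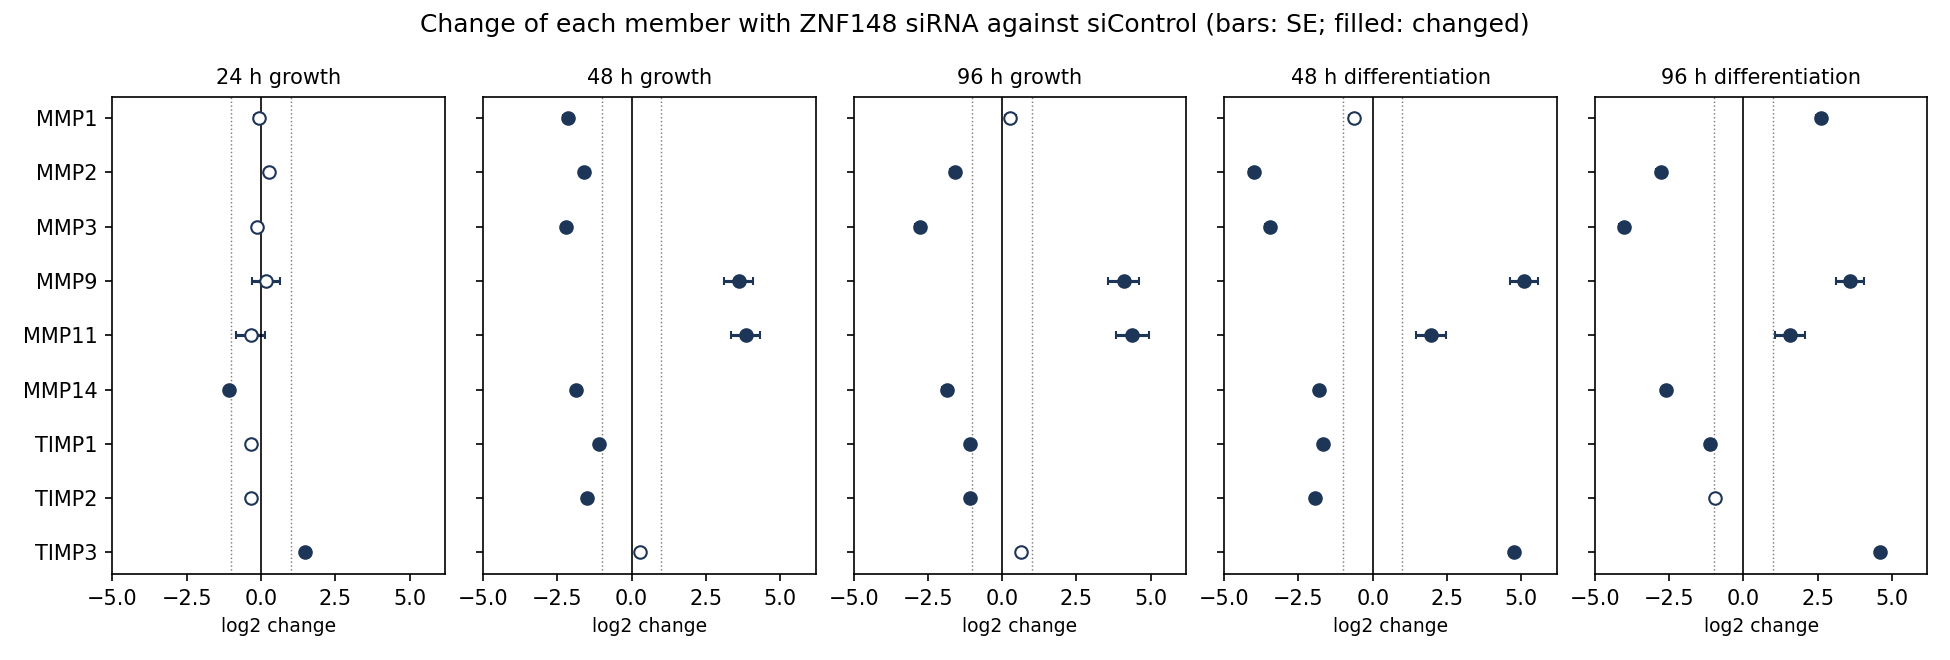
Log2 change of each tested member with siZNF148 against siControl (horizontal axis) in the 5 knockdown comparisons, with SE bars, filled points for called changes and dotted lines at 2-fold. MMP14 and TIMP3 are the filled points at 24 h, with changes of -1.09 and 1.49.

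MMP3 (stromelysin-1), which degrades proteoglycans, fibronectin and other matrix proteins and activates other MMPs, did not pass the test at 24 h and fell at each later harvest. MMP3 signal at 24 h was 14.10, 13.99 and 14.10 on the siControl arrays and 13.92, 13.94 and 13.96 on the siZNF148 arrays. The siZNF148 arrays all lay lower, by 0.12 (SE 0.146, adjusted p = 0.652). In growth media, MMP3 at 48 h read 9.79, 10.33 and 10.36 with siControl and 8.03, 8.05 and 7.80 with siZNF148. At 96 h, MMP3 read 8.59 and 8.62 against 5.58, 5.99 and 5.92. No siZNF148 array reached a siControl array, and MMP3 fell by 2.20 at 48 h (SE 0.146, adjusted p = 8.20e-11) and fell by 2.77 at 96 h (SE 0.164, adjusted p = 1.40e-11). In differentiation media, MMP3 at 48 h read 11.50, 11.44 and 11.24 with siControl and from 7.74 to 8.05 with siZNF148. At 96 h, MMP3 read 9.51, 9.59 and 9.35 against 5.44, 5.20 and 5.73. MMP3 fell by 3.47 (SE 0.146, adjusted p = 1.75e-14) and fell by 4.03 (SE 0.146, adjusted p = 6.33e-15), which left siZNF148 cells 11-fold and 16.3-fold below siControl cells. With normexp background correction the 96 h changes of MMP3 were smaller, -2.91 (7.52-fold) in differentiation and -1.93 (3.81-fold) in growth media.

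The level of MMP3 spanned 478-fold over the 29 arrays, and most of that range lay between harvests. Its order from high to low was siControl at 24 h, siZNF148 at 24 h, siControl at 48 h in differentiation and then growth media, and siControl at 96 h in differentiation and then growth media, followed by the 4 later siZNF148 groups. Among these last groups both media overlapped at 48 h (means 7.96 and 7.93) and at 96 h (5.83 and 5.46), while the other neighbours in the order did not overlap. Within siControl, differentiation media gave a higher MMP3 than growth media by 1.23 at 48 h (SE 0.146, adjusted p = 4.74e-07). At 96 h it was higher by 0.88 (SE 0.164, adjusted p = 0.000202), under the 2-fold threshold. With siZNF148 the media groups overlapped at each hour. The knockdown change was more negative in differentiation media, by -1.26 at 48 h (SE 0.207, adjusted p = 4.82e-05) and by -1.25 at 96 h (SE 0.22, adjusted p = 0.000205). The 96 h difference was -0.98, under 2-fold, with normexp background correction.

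MMP2 (gelatinase A), which cuts denatured collagens and type IV collagen and is made by many mesenchymal cells, had siControl means between 10.23 and 11.88 and fell with siZNF148 from 48 h. MMP2 signal at 24 h was 10.22, 10.31 and 10.16 with siControl and 10.47, 10.62 and 10.43 with siZNF148, a difference of 0.28 (SE 0.146, adjusted p = 0.201). In growth media, MMP2 at 48 h read 10.57, 10.86 and 11.14 against 9.30, 9.45 and 9.03. At 96 h, MMP2 read 11.23 and 11.06 against 9.43, 9.79 and 9.45. The falls were 3.02-fold at 48 h (log2 change -1.60, SE 0.146, adjusted p = 1.01e-08) and 3-fold at 96 h (-1.59, SE 0.163, adjusted p = 5.63e-08). In differentiation media, MMP2 at 48 h read 11.79, 11.91 and 11.93 against 7.99, 7.73 and 7.89. At 96 h, MMP2 read 10.96, 11.11 and 10.76 against 8.38, 7.91 and 8.21. MMP2 thus fell by 4.01 (16.1-fold, SE 0.146, adjusted p = 1.88e-15) and fell by 2.78 (6.86-fold, SE 0.146, adjusted p = 1.44e-12).

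The fall of MMP2 was larger in differentiation than in growth media with a difference of log2 changes of -2.41 at 48 h (SE 0.206, adjusted p = 7.60e-09) and -1.19 at 96 h (SE 0.219, adjusted p = 0.000324). The 96 h value was -0.87, under 2-fold, with normexp background correction. In siControl cells, the media changed MMP2 by 1.02 at 48 h (SE 0.146, adjusted p = 5.62e-06) and by -0.20 at 96 h (SE 0.163, adjusted p = 0.398). The 48 h change was at the edge of the threshold, 0.88 without siControl replicate 1 in growth media, 0.99 without siControl replicate 3 in differentiation media and 0.88 with 75th percentile scaling. Ordered by level, siControl at 48 h in differentiation media was highest and the siZNF148 groups in differentiation media were lowest. The siControl groups at 96 h in growth, 96 h in differentiation and 48 h in growth media overlapped one another in that order, and the last overlapped siZNF148 at 24 h. The siZNF148 groups of both hours overlapped within growth media and within differentiation media.

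MMP14 (membrane type 1 MMP), a cell surface collagenase that also activates the MMP2 proenzyme, was lower with siZNF148 in each of the 5 comparisons, 24 h included. MMP14 signal at 24 h was 12.09, 12.00 and 12.00 with siControl and 10.90, 10.83 and 11.09 with siZNF148. In growth media, MMP14 at 48 h read 12.34, 12.87 and 12.80 against 10.61, 10.86 and 10.94. At 96 h, MMP14 read 12.65 and 12.89 against 10.79, 10.93 and 11.00. Every siZNF148 array lay below every siControl array of the same harvest, and the change was -1.09 at 24 h (2.13-fold lower, SE 0.135, adjusted p = 3.11e-06), -1.86 at 48 h (SE 0.135, adjusted p = 3.28e-10) and -1.87 at 96 h (SE 0.151, adjusted p = 1.75e-09). In differentiation media, MMP14 at 48 h read 12.44, 12.19 and 12.03 against 10.56, 10.28 and 10.35. At 96 h, MMP14 read 12.59, 12.50 and 12.45 against 9.73, 10.09 and 9.93. There MMP14 fell by 1.82 (SE 0.135, adjusted p = 1.54e-10) and fell by 2.60 (SE 0.135, adjusted p = 1.31e-12).

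The media did not move MMP14 past 2-fold in siControl cells, with changes of -0.45 at 48 h (SE 0.135, adjusted p = 0.0109) and -0.25 at 96 h (SE 0.151, adjusted p = 0.224). Nor was the knockdown change of MMP14 called different between media, at 0.04 for 48 h (SE 0.191, adjusted p = 0.918) and -0.73 for 96 h (SE 0.203, adjusted p = 0.0108). All 5 siControl groups lay above all 5 siZNF148 groups, with the siControl means between 12.03 and 12.77 and the siZNF148 means between 9.92 and 10.94. Within the siZNF148 groups, 24, 96 and 48 h in growth media overlapped in that order.

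MMP9 (gelatinase B), which like MMP2 cuts denatured and type IV collagen and is best known from inflammatory cells, rose with siZNF148 at each harvest after 24 h. MMP9 signal at 24 h was 5.02, 5.70 and 5.37 with siControl and 5.39, 5.51 and 5.69 with siZNF148, so the groups overlapped (change 0.17, SE 0.473, adjusted p = 0.893). In growth media, MMP9 at 48 h read 9.36, 6.36 and 6.40 with siControl and 10.85, 10.95 and 11.12 with siZNF148. At 96 h, MMP9 read 7.38 and 7.36 against 11.13, 11.56 and 11.69. The siControl array at 9.36 is the one that stands apart, and it too lay below every siZNF148 array. The rise was 3.60 at 48 h (12.1-fold, SE 0.473, adjusted p = 1.51e-06), 4.59 without that array (adjusted p = 5.03e-14), and 4.09 at 96 h (17-fold, SE 0.529, adjusted p = 1.39e-06). In differentiation media, MMP9 at 48 h read 5.90, 5.45 and 5.37 against 10.83, 10.70 and 10.49. At 96 h, MMP9 read 6.78, 7.18 and 7.26 against 10.58, 10.71 and 10.67. These were rises of 5.10 (34.3-fold, SE 0.473, adjusted p = 5.26e-09) and 3.58 (12-fold, SE 0.473, adjusted p = 1.58e-06). With normexp background correction they were 3.94 (15.3-fold) and 2.97 (7.84-fold). In a limma fit without siControl replicate 1 at 48 h in growth media, their adjusted p values were 1.01e-15 and 6.35e-13.

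The 4 later siZNF148 groups held the highest MMP9 levels, with means from 10.66 to 11.46, and in differentiation media those of 48 and 96 h overlapped. In siControl cells MMP9 was lower in differentiation than in growth media at 48 h, by -1.80 (SE 0.473, adjusted p = 0.00387). Without siControl replicate 1 in growth media that change was -0.80 (adjusted p = 0.00216), under 2-fold, with normexp it was -1.21, and in a fit of only the arrays compared its adjusted p was 0.206. At 96 h it was -0.30 (SE 0.529, adjusted p = 0.751). The knockdown change of MMP9 was not called different between media, at 1.50 for 48 h (SE 0.669, adjusted p = 0.0993) and -0.51 for 96 h (SE 0.71, adjusted p = 0.684). The 48 h difference was 0.90 with normexp and 0.50 without siControl replicate 1 in growth media, and passed at 2.01 (adjusted p = 0.0203) and 1.99 (adjusted p = 0.0229) without replicate 2 or 3 of that group.

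MMP11 (stromelysin-3), which is activated inside the cell by furin and cuts few matrix proteins, rose most in growth media. MMP11 signal at 24 h was 5.66, 5.43 and 5.91 with siControl and 5.15, 5.24 and 5.57 with siZNF148, where 1 of the 3 siZNF148 arrays was well above background (change -0.35, SE 0.499, adjusted p = 0.724). In growth media, MMP11 at 48 h read 9.82, 6.85 and 6.47 against 11.45, 11.46 and 11.77. At 96 h, MMP11 read 7.42 and 7.57 against 11.88, 11.78 and 11.98. The array at 9.82 is again siControl replicate 1. MMP11 rose by 3.84 at 48 h (14.4-fold, SE 0.499, adjusted p = 1.29e-06), by 4.90 without that array (adjusted p = 3.12e-14) or by 3.22 without replicate 3 of its group (adjusted p = 1.22e-05), and by 4.38 at 96 h (20.9-fold, SE 0.558, adjusted p = 1.12e-06). In differentiation media, MMP11 at 48 h read 8.93, 8.38 and 7.96 against 10.39, 10.46 and 10.32. At 96 h, MMP11 read 9.56, 9.62 and 9.65 against 11.09, 11.37 and 11.13. The groups did not overlap, and the rises were 1.97 (SE 0.499, adjusted p = 0.00189) and 1.58 (SE 0.499, adjusted p = 0.0116). That SE includes the spread of siControl at 48 h in growth media. In a limma fit without replicate 1 of that group, the adjusted p values of those rises were 6.39e-09 and 2.51e-07.

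In siControl cells MMP11 was higher in differentiation than in growth media by 2.12 at 96 h (SE 0.558, adjusted p = 0.00482), although with the slide as a block it was 1.64 with an adjusted p of 0.0585. At 48 h the media change was 0.70 (SE 0.499, adjusted p = 0.311), 1.76 without siControl replicate 1 in growth media (adjusted p = 4.31e-07) and 0.08 without replicate 3 of that group. The rise with siZNF148 was smaller in differentiation media, by -2.80 at 96 h (SE 0.749, adjusted p = 0.0083). At 48 h the difference was -1.87 (SE 0.706, adjusted p = 0.0477), and -2.93 without siControl replicate 1 in growth media (adjusted p = 3.34e-08). That 48 h call rested on a p close to the threshold. Its adjusted p was 0.0707 with no filter on dim probes and 0.234 in a fit of only the arrays compared, and leaving out 1 array at a time ended it in 10 of 12 fits, with values from -1.93 to -1.25, the last without siControl replicate 3 in growth media. It held only without siControl replicate 1 in growth media or siControl replicate 3 in differentiation media. The order of MMP11 levels ran from siZNF148 at 96 h in growth media (mean 11.88) to siZNF148 at 24 h (5.32), and the siControl groups at 48 h in differentiation, 48 h in growth and 96 h in growth media overlapped in that order.

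**Figure D3:**
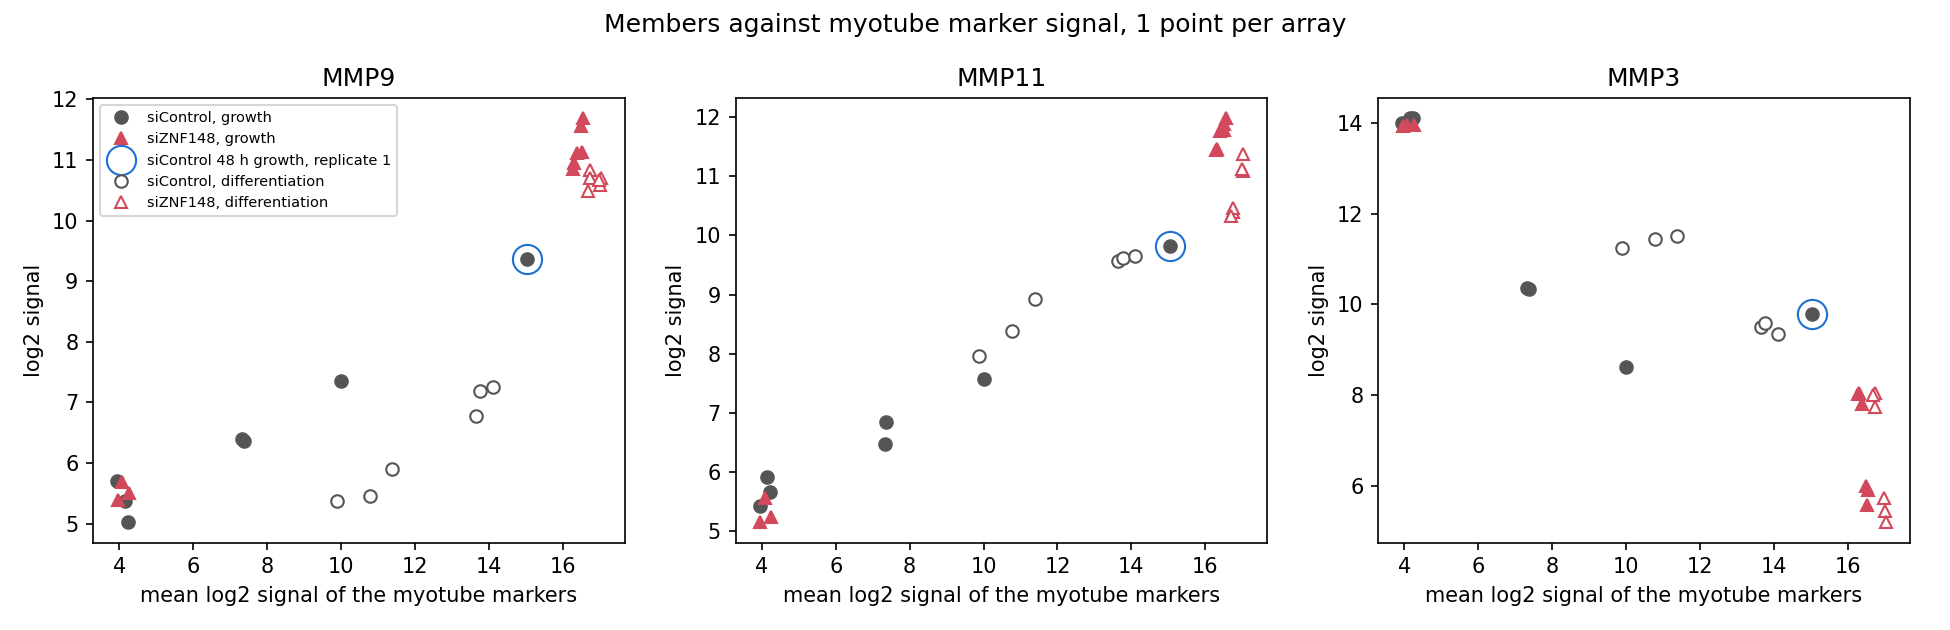
Log2 signal of MMP9, MMP11 and MMP3 (vertical axes) against the mean log2 signal of 8 myotube markers (horizontal axis), 1 point for each of 28 arrays, with siControl as circles, siZNF148 as triangles, open symbols for differentiation media and a ring around siControl replicate 1 at 48 h in growth media. The ringed array, at a marker mean of 15.04, has MMP9 at 9.36 and MMP11 at 9.82; 1 array of siControl at 96 h in growth media lacks a value for 1 marker and is left out.

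The myotube markers MYOG, MYH3, MYH8, CKM, ACTA1, TNNT3, TNNC2 and MYL1 moved with the knockdown in the same comparisons as MMP9 and MMP11. At 24 h, 0 of the 8 were called by limma, and 0 had an unadjusted p under 0.05. All 8 of 8 were called higher with siZNF148 at both later hours in growth media and after 48 h in differentiation media. Of all genes, 11.7%, 12.3% and 15.1% were called higher in these comparisons. After 96 h in differentiation media, 4 of 8 were called higher, against 10.5% of all genes. The siControl and siZNF148 arrays there overlapped for none of the 8, while 65.6% of all genes were separate. The median change of the markers was 3.35. Of the 8, MYOG (means 10.43 against 11.39) and ACTA1 (17.37 against 18.19) rose there by under 2-fold. The limma fit pools the spread of all groups, including siControl at 48 h in growth media, where CKM ranged from 5.83 to 16.03. Counts of called markers at 24 h and at 96 h in differentiation media thus also depend on arrays outside those comparisons. The array means of the list ranged from 3.94 to 4.22 with siControl and 3.95 to 4.25 with siZNF148 at 24 h, and from 7.33 to 15.04 against 16.29 to 16.39 at 48 h in growth media. They reached at most 10.28 against 16.50 to 16.56 at 96 h in growth media, from 9.88 to 11.39 against 16.69 to 16.75 at 48 h in differentiation media, and from 13.65 to 14.11 against 16.99 to 17.03 at 96 h there. The part of myotube content in the changes of the MMPs and TIMPs was not tested, and in such bulk RNA fewer cells of a type and less RNA per cell cannot be told apart.

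Markers of other cell types were also read, as MMP9 in particular is known from other cells. Of 6 fibroblast markers, PDGFRA, THY1, DCN and LUM were well above background on all 29 arrays and TCF21 on 3, and 0, 2, 2, 3 and 2 of the list were lower with siZNF148 in the order of the comparisons above, with 0 called higher by limma and at most 1 higher at an unadjusted p under 0.05. At 24 h 3 fibroblast markers were lower at that unadjusted p. Of all genes, 3.08%, 12.2%, 12.4%, 17.3% and 12.8% were called lower in these comparisons, and 2.46%, 11.7%, 12.3%, 15.1% and 10.5% higher. In lists this short, counts of 1 or 2 lie near those shares. Of 6 endothelial markers, CDH5 was well above background on 29 arrays and EMCN on 2, and at most 1 was higher and 3 lower in any knockdown comparison. At 24 h 0 were called by limma, with 0 at an unadjusted p under 0.05. Of 4 macrophage markers on the array, PTPRC was well above background on 26 arrays and CD14 and CSF1R on 29, and at most 1 was higher and 2 lower. The other, CD163, which also marks macrophages, was well above background on 20 arrays and on none at 24 h. Mean log2 signal of CD163 was 5.07 with siControl and 11.95 with siZNF148 at 48 h in growth media, and 3.97 against 9.82 at 96 h there. At 48 h 1 of the 3 siControl arrays read 10.12, below each siZNF148 array. In differentiation media CD163 read 5.20 against 11.45 at 48 h and 9.06 against 9.75 at 96 h. Mean CD163 was higher with siZNF148 in each of these comparisons, but the macrophage list did not move together. Of its 4 markers, 1 was called higher and 1 lower at 48 h in both media, and 1 and 2 at 96 h in growth media. At 96 h in differentiation media, 0 were called higher and 2 lower. Array means of the 4 macrophage markers there were 7.19 to 7.38 with siControl and 6.97 to 7.16 with siZNF148. The cells are 1 selected clone, so these signals are read as RNA of that line and not as amounts of other cells. How these signals relate to the changes of the MMPs and TIMPs was not tested.

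MMP1 (interstitial collagenase), which cuts fibrillar collagens, was the only member called lower in 1 knockdown comparison and higher in another. MMP1 signal at 24 h was 12.17, 12.23 and 12.20 with siControl and 12.10, 12.15 and 12.12 with siZNF148 (change -0.08, SE 0.161, adjusted p = 0.833). In growth media, MMP1 at 48 h read 10.68, 10.90 and 11.29 against 8.71, 9.01 and 8.71. At 96 h, MMP1 read 10.67 and 10.56 against 10.69, 11.14 and 10.86. MMP1 thus fell by 2.15 at 48 h (4.43-fold, SE 0.161, adjusted p = 5.04e-10) and at 96 h differed by 0.28 (SE 0.179, adjusted p = 0.228). In differentiation media, MMP1 at 48 h read 9.22, 9.40 and 9.34 against 8.70, 8.78 and 8.61. At 96 h, MMP1 read 7.24, 7.65 and 7.08 against 9.60 to 10.16. The change was -0.63 at 48 h (SE 0.161, adjusted p = 0.00212), under 2-fold, and MMP1 rose by 2.60 at 96 h (6.05-fold, SE 0.161, adjusted p = 1.78e-11).

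In siControl cells MMP1 was lower in differentiation than in growth media, by -1.63 at 48 h (SE 0.161, adjusted p = 2.97e-08) and by -3.29 at 96 h (9.8-fold, SE 0.179, adjusted p = 8.19e-12). The knockdown change of MMP1 lay higher in differentiation media, by 1.52 at 48 h (SE 0.227, adjusted p = 1.59e-05) and by 2.31 at 96 h (SE 0.241, adjusted p = 4.12e-07). By level, both 24 h groups were highest and siControl at 96 h in differentiation media was lowest. Neighbours that overlapped were siControl at 48 h with siZNF148 at 96 h in growth media, and siZNF148 at 48 h in growth media with siZNF148 at 48 h in differentiation media.

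TIMP3, an inhibitor that stays bound to the matrix and also blocks several ADAM and ADAMTS proteases, showed the widest difference between media of the 9 tested members. TIMP3 signal at 24 h was 7.99, 7.93 and 8.12 with siControl and 9.48, 9.54 and 9.50 with siZNF148, a rise of 1.49 (2.81-fold, SE 0.113, adjusted p = 3.69e-09). In growth media, TIMP3 at 48 h read 9.25, 9.07 and 9.12 against 9.36, 9.46 and 9.50. At 96 h, TIMP3 read 9.48 and 9.45 against 10.05, 10.14 and 10.13. These arrays did not overlap either, but the changes, 0.29 (SE 0.113, adjusted p = 0.0397) and 0.64 (SE 0.126, adjusted p = 0.000225), were under 2-fold. In differentiation media, TIMP3 at 48 h read 4.69, 5.21 and 4.70 with siControl, the first not well above background, and 9.65, 9.61 and 9.64 with siZNF148. At 96 h, TIMP3 read 4.86, 5.03 and 5.33 against 9.64, 9.61 and 9.73. TIMP3 was higher with siZNF148 by 4.76 at 48 h (27.1-fold, SE 0.113, adjusted p = 7.08e-18) and by 4.59 at 96 h (24-fold, SE 0.113, adjusted p = 3.63e-17). These folds rest on siControl signals near background, and with normexp the rises of TIMP3 were 3.07 (8.4-fold) and 3.06 (8.34-fold).

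TIMP3 was lower in differentiation than in growth media in siControl cells, by -4.28 at 48 h (19.4-fold, SE 0.113, adjusted p = 5.08e-17) and by -4.40 at 96 h (21.1-fold, SE 0.126, adjusted p = 5.52e-16). The siZNF148 group means were 9.44 and 10.11 in growth media and 9.63 and 9.66 in differentiation media at those hours. The knockdown change differed between media by 4.47 at 48 h (SE 0.159, adjusted p = 3.49e-14) and 3.95 at 96 h (SE 0.169, adjusted p = 3.60e-12). With normexp the media changes of TIMP3 in siControl cells were -2.64 (6.23-fold) and -2.81 (7.01-fold), and the differences of the knockdown change were 2.78 and 2.49. In order of level, both siControl groups in differentiation media were lowest and overlapped each other. The siZNF148 groups of differentiation media overlapped each other, and siZNF148 at 24 h, siControl at 96 h in growth media and siZNF148 at 48 h in growth media overlapped in that order.

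TIMP1, a secreted inhibitor of most MMPs, fell 2.11-fold to 3.2-fold in the comparisons after 24 h. TIMP1 signal at 24 h was 14.67, 14.62 and 14.65 with siControl and 14.20, 14.34 and 14.43 with siZNF148 (change -0.32, SE 0.104, adjusted p = 0.0269, under 2-fold). In growth media, TIMP1 at 48 h read 14.73, 15.08 and 14.80 against 13.70, 13.65 and 13.96. At 96 h, TIMP1 read 14.99 and 15.01 against 13.88, 13.83 and 14.05. TIMP1 fell by 1.10 (SE 0.104, adjusted p = 1.67e-08) and fell by 1.08 (SE 0.116, adjusted p = 1.13e-07), and the first was -0.99 without siControl replicate 2. In differentiation media, TIMP1 at 48 h read 14.62, 14.44 and 14.47 against 12.97, 12.77 and 12.76. At 96 h, TIMP1 read 13.72, 13.53 and 13.81 against 12.49, 12.68 and 12.50. TIMP1 fell by 1.68 (SE 0.104, adjusted p = 8.07e-12) and fell by 1.13 (SE 0.104, adjusted p = 8.21e-09).

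The media lowered TIMP1 in siControl cells at 96 h, by -1.31 (SE 0.116, adjusted p = 1.22e-08), and the change at 48 h was -0.36 (SE 0.104, adjusted p = 0.00748). The knockdown change of TIMP1 was not called different between media, at -0.58 for 48 h (SE 0.147, adjusted p = 0.00374) and -0.05 for 96 h (SE 0.156, adjusted p = 0.86). Its highest groups were siControl at 96 and 48 h in growth media, which overlapped, and its lowest was siZNF148 at 96 h in differentiation media (mean 12.56). The siZNF148 groups at 96 and 48 h in growth media and siControl at 96 h in differentiation media overlapped in that order.

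TIMP2, which inhibits MMPs and also joins MMP14 in activating the MMP2 proenzyme, was lower with siZNF148 at every harvest, past 2-fold in 3 of the 5 comparisons. TIMP2 signal at 24 h was 15.77, 15.73 and 15.63 with siControl and 15.33, 15.46 and 15.32 with siZNF148 (change -0.34, SE 0.0847, adjusted p = 0.00489, under 2-fold). In growth media, TIMP2 at 48 h read 15.95, 16.28 and 16.41 against 14.67, 14.74 and 14.73. At 96 h, TIMP2 read 16.53 and 16.39 against 15.37, 15.42 and 15.33. The groups did not overlap and TIMP2 fell by 1.50 (SE 0.0847, adjusted p = 6.21e-12) and fell by 1.08 (SE 0.0947, adjusted p = 5.29e-09). In differentiation media, TIMP2 at 48 h read 16.80, 16.85 and 16.76 against 14.86, 14.87 and 14.83. At 96 h, TIMP2 read 16.49, 16.51 and 16.43 against 15.62, 15.43 and 15.53. It fell by 1.95 at 48 h (SE 0.0847, adjusted p = 2.67e-14), and the change at 96 h, -0.95 (SE 0.0847, adjusted p = 5.58e-09), was just under 2-fold.

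The media changes of TIMP2 in siControl cells were 0.59 at 48 h (SE 0.0847, adjusted p = 6.16e-06) and 0.01 at 96 h (SE 0.0947, adjusted p = 0.96), neither past 2-fold. Its knockdown change was not called different between media, at -0.45 for 48 h (SE 0.12, adjusted p = 0.00553) and 0.14 for 96 h (SE 0.127, adjusted p = 0.496). All siControl groups lay above all siZNF148 groups in the order of levels. Overlapping neighbours were siControl at 96 h in differentiation and growth media, the latter with siControl at 48 h in growth media, and siZNF148 at 96 h with siZNF148 at 24 h in growth media.

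MMP10 (stromelysin-2), a close relative of MMP3, was well above background on 1 of the 29 arrays. That array was siZNF148 at 96 h in differentiation media, replicate 3, at 7.28, while the other 2 arrays of its group read 2.62 and 2.00. MMP10 was not well above background on any siControl array, and no fold change is given.

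Across media, 5 of the 9 members were called in siControl cells at 48 h, 2 higher and 3 lower in differentiation media, against 16.0% of all genes (7.77% higher, 8.22% lower). With the adjusted p alone these were 8 members and 49.8% of all genes. At 96 h 4 were called, 1 higher and 3 lower, against 15.1% of all genes (6.81% higher, 8.25% lower). The siControl arrays in growth media at 96 h shared no slide with those in differentiation media. Media and slide thus cannot be told apart within that comparison. With the slide as a block, fitted over all arrays, the MMP11 change was 1.64 (adjusted p = 0.0585, limma), and no other call of a member was lost. The knockdown change of 5 members differed between media at 48 h, 2 toward higher and 3 toward lower, against 17.2% of all genes (8.13% and 9.07%). At 96 h there were again 2 and 3, against 12.5% of all genes (5.55% and 6.93%). At each hour these were MMP1, MMP2, MMP3, MMP11 and TIMP3, and each differed in the same direction at both hours. Those contrasts use the same arrays as the knockdown comparisons they are made of.

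**Figure D4:**
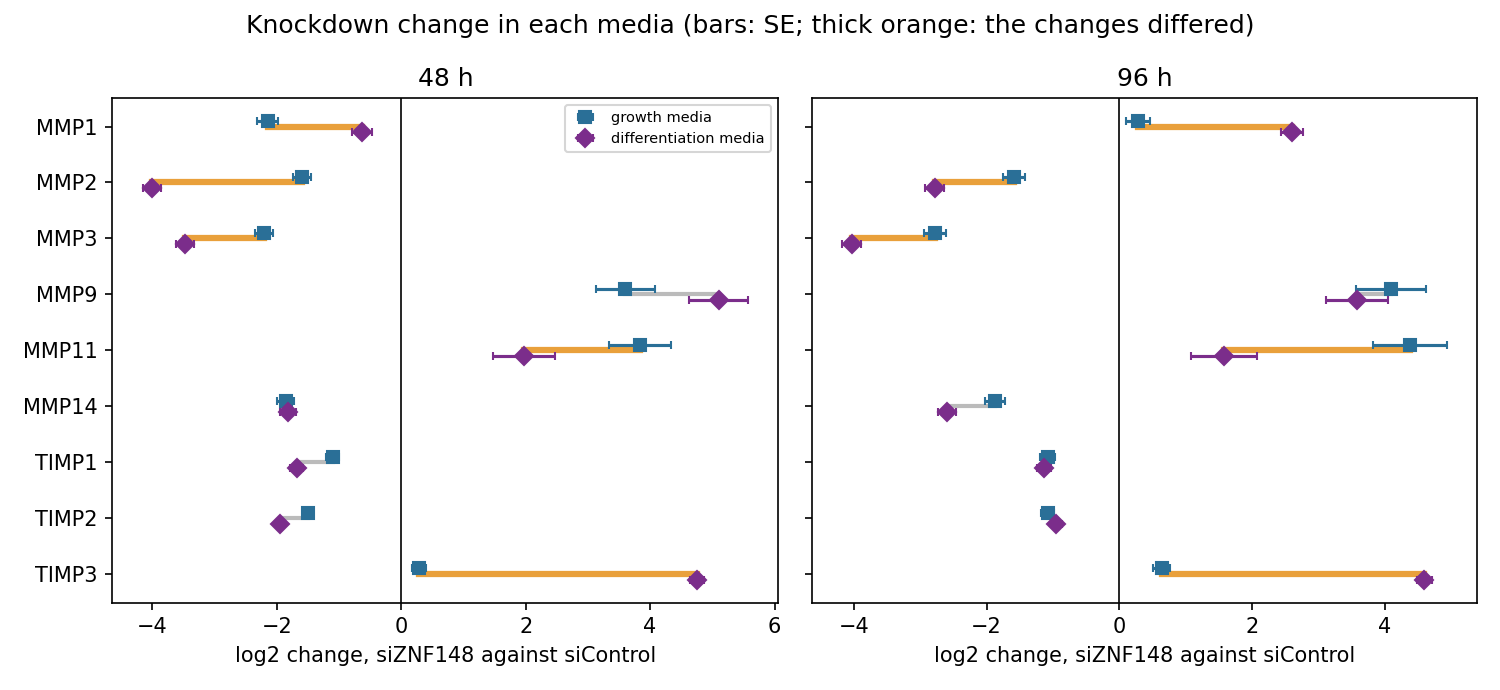
Log2 change with siZNF148 against siControl (horizontal axis) for each tested member at 48 h (left) and 96 h (right), in growth media (squares) and differentiation media (diamonds), with SE bars and thick orange lines where the changes were called different. TIMP3 changes by 0.29 and 0.64 in growth media and by 4.76 and 4.59 in differentiation media.

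Between the subconfluent 24 h harvest and the confluent 48 h harvest in growth media, the knockdown change differed for 7 of 9 members, 2 toward higher and 5 toward lower, against 20.6% of all genes (10.3% and 10.4%). The difference of the 48 h change minus the 24 h change was 3.43 for MMP9 (SE 0.669, adjusted p = 0.000323) and 4.19 for MMP11 (SE 0.706, adjusted p = 6.87e-05). Without siControl replicate 1 at 48 h these were 4.43 and 5.25, and for MMP11 the difference was 3.57 without replicate 3 and 3.42 with normexp. It was -2.07 for MMP1 (SE 0.227, adjusted p = 3.36e-07), -1.87 for MMP2 (SE 0.206, adjusted p = 3.49e-07), -2.08 for MMP3 (SE 0.207, adjusted p = 8.93e-08) and -1.16 for TIMP2 (SE 0.12, adjusted p = 1.40e-07). TIMP3, which rose at 24 h but was under 2-fold at 48 h, gave -1.20 (SE 0.159, adjusted p = 4.21e-06), and -0.96 with normexp background correction. For MMP14 (-0.77, SE 0.191, adjusted p = 0.00286) and TIMP1 (-0.77, SE 0.147, adjusted p = 0.000243) the difference was under 2-fold. All 24 h arrays were on 1 slide and the other arrays on the other slides, so slide and the 24 h harvest cannot be told apart.

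Other genes of extracellular proteolysis included more called lower than called higher at each harvest. Of 46 such genes, 40 had a tested probe, and 1 was higher and 5 lower with siZNF148 at 24 h, 8 and 14 at 48 h in growth media, 6 and 14 at 96 h in growth media, 8 and 20 at 48 h in differentiation media, and 8 and 10 at 96 h in differentiation media. In percent of the 40, the higher and lower genes were 2.5% and 12.5%, 20% and 35%, 15% and 35%, 20% and 50%, and 20% and 25%, to be read against the shares of all genes called in these comparisons (2.46% and 3.08%, 11.7% and 12.2%, 12.3% and 12.4%, 15.1% and 17.3%, and 10.5% and 12.8%). Without siControl replicate 1, 9 were higher and 15 lower at 48 h in growth media. The median change of the list was -0.07, -0.56, -0.45, -1.01 and -0.25 in that order. In the plasminogen system, which activates several MMP proenzymes, the urokinase receptor PLAUR fell by 3.27 at 48 h in growth media (SE 0.117, adjusted p = 8.65e-15), with a change of -3.42 without siControl replicate 1. THBS2, a matrix glycoprotein that takes part in clearing MMP2, fell by 1.28 at 24 h (SE 0.171, adjusted p = 7.98e-06) and fell by 4.69 at 48 h in differentiation media (SE 0.171, adjusted p = 2.04e-15). LRP1, the endocytic receptor for protease complexes, fell by 2.94 at 48 h (SE 0.0972, adjusted p = 4.87e-16) and fell by 1.81 at 96 h (SE 0.0972, adjusted p = 2.18e-12) in differentiation media.

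Among the lysosomal cathepsins, CTSL fell by 3.02 at 48 h and fell by 2.37 at 96 h in growth media and fell by 2.97 at 48 h in differentiation media (adjusted p = 1.92e-15, 2.11e-13 and 3.48e-16). CTSB fell by 1.82 at 96 h in growth media (adjusted p = 1.28e-11). RECK, a membrane-anchored MMP inhibitor, fell by 1.88 at 96 h in differentiation media (SE 0.193, adjusted p = 4.55e-08). Genes that rose included MMP15, another membrane-type MMP, by 2.60 at 48 h in growth media (SE 0.27, adjusted p = 6.03e-08), 3.30 at 48 h (SE 0.27, adjusted p = 7.10e-10) and 1.67 at 96 h (SE 0.27, adjusted p = 2.21e-05) in differentiation media. TIMP4 rose by 3.42 at 96 h in growth media (SE 0.447, adjusted p = 1.59e-06). The proteoglycan-cutting ADAMTS9 rose by 2.34 and 2.71 in growth media and by 4.33 and 1.78 in differentiation media at 48 and 96 h. The broad protease inhibitor A2M rose by 5.49 at 48 h (SE 1, adjusted p = 8.69e-05) and 7.85 at 96 h (SE 1.12, adjusted p = 5.03e-06) in growth media and by 8.63 at 96 h in differentiation media (SE 1, adjusted p = 2.56e-07). At 24 h ADAM19 rose by 1.10 (SE 0.142, adjusted p = 4.95e-06) and ADAMTS1 fell by 1.15 (SE 0.141, adjusted p = 2.79e-06), and ADAMTS4 rose by 1.76 at 48 h in differentiation media (SE 0.239, adjusted p = 1.54e-06). Without siControl replicate 1 the changes at 48 h in growth media were -3.19 for CTSL, 3.16 for MMP15, 2.83 for ADAMTS9 and 7.36 for A2M.

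AP-1 and ETS factors, cytokines and receptors that are known to act on MMP genes had 27 tested genes. With siZNF148, 3 were higher and 2 lower at 24 h, 5 and 6 at 48 h in growth media, 6 and 5 at 96 h in growth media, 8 and 6 at 48 h in differentiation media, and 8 and 7 at 96 h in differentiation media. These were 11.1% and 7.41%, 18.5% and 22.2%, 22.2% and 18.5%, 29.6% and 22.2%, and 29.6% and 25.9% of the list, in each case above the shares of all genes given beside the proteolysis genes. Both lists were chosen with earlier results of these data known, so these shares are a description. Without siControl replicate 1, 5 were higher and 9 lower at 48 h in growth media. Their median changes were -0.00, -0.68, 0.34, 0.02 and 0.02 in that order.

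Some members had like profiles over the 29 arrays. Pearson's r of log2 signal was 0.90 for MMP9 with MMP11, 0.85 for MMP2 with MMP14, 0.82 for MMP2 with TIMP1 and with TIMP2, and -0.90 for MMP3 with MMP11. The arrays fall into 10 groups and share the knockdown and harvest differences given above, so these values describe the same differences again. Of 15071 genes well above background on at least 15 arrays, the one most like each member was TNNT3 for MMP11 (r = 0.982), HTR3E for MMP9 (0.983), ESYT2 for MMP2 (0.988), FMNL3 for MMP14 (0.980) and TNRC6A for MMP3 (0.961). For the others it was ABHD5 for MMP1 (0.961), APLP2 for TIMP1 (0.965), CTSA for TIMP2 (0.968) and TMEM244 for TIMP3 (0.939), the lowest of these values.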

How the data were processed

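RNA of 29 LHCN-M2 cultures was measured on 1-colour Agilent arrays, grouped by the samples' labels, which name the replicates biological. The intensities deposited per spot are linear and background-subtracted, extracted by the authors with Agilent Feature Extraction (10.7.3.1 in the submitters' processing notes, another version in the methods), without scaling between arrays. A quantile-normalized log2 matrix was deposited too, in which 140 control probes remained. Each of 29 columns matched its own array best, and the members' values differed from it by at most 0.0653. The report uses values recomputed from the intensities.

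Of 62976 spots per array, control and outlier spots were left out, the log2 signals of a probe were averaged (58201 probes), and the arrays were quantile-normalized together. Probes had to be well above background on 2 arrays or more, and the 38714 that were entered the test in R 4.3.3 with limma 3.58.1 (lmFit, eBayes, 10 group means, two-sided). Differences between changes were contrasts in the same fit. RefSeq accessions named 31104 probes, and backgrounds are counted over the tested probe with the highest mean of each of 18398 genes. The methods' t-test was an alternative, as were another scaling, normexp (offset 50, on median signals), the authors' log2 matrix, other filters, a fit of only the arrays compared, replicate and slide blocks, no fold threshold, and leaving out each array.

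Members and gene lists were chosen with earlier results of these data known. All members are named, and of the other proteolysis genes up to 3 largest rises and falls per knockdown comparison among called genes that were measured well above background throughout and whose groups did not overlap. A gene that this rule names is not reported here. Replicate numbers in the titles were used. They did not pair the samples, since the deviations of same-numbered arrays correlated over 0.1 in 1 of 14 pairs. As 14 array headers name hg19 and 15 no build, no gene positions are given other than those of the promoter table, searched with Python 3.11.15.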

Additional observations from a re-analysis of the deposited data

Results flagged for a closer look

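The knockdown change differed between differentiation and growth media, by a contrast of the changes in the limma fit, for 5 members at each hour. At 48 h the differences were 1.52 for MMP1, -2.41 for MMP2, -1.26 for MMP3, -1.87 for MMP11 and 4.47 for TIMP3. At 96 h they were 2.31 for MMP1, -1.19 for MMP2, -1.25 for MMP3, -2.80 for MMP11 and 3.95 for TIMP3. The 48 h call of MMP11 was lost in 10 of 12 fits that left out 1 array. With normexp the 96 h differences of MMP2 and MMP3 were -0.87 and -0.98, under 2-fold. The knockdown change also differed between 48 and 24 h in growth media, by -2.07 for MMP1, -1.87 for MMP2, -2.08 for MMP3, 3.43 for MMP9, 4.19 for MMP11, -1.16 for TIMP2 and -1.20 for TIMP3. The TIMP3 value was -0.96, under 2-fold, with normexp.

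MMP10, left out of the tests as too dim, read 7.28 on 1 siZNF148 array at 96 h in differentiation media (replicate 3), above every siControl array.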

How the results depend on the processing

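Of 1602 recomputed changes of single members, 1543 kept their direction and their side of the threshold. The 17 that turned sign were values near 0 that were not called, 24 called changes were no longer past the threshold and 18 became so, 15 of these 18 by using the adjusted p alone. With 75th percentile scaling the 24 h changes of MMP1 and MMP3 turned to 0.02 and 0.01. The media change of TIMP2 in siControl cells at 96 h turned to -0.09 with that scaling and -0.06 with normexp. The difference between media at 96 h for TIMP1 turned to 0.14 with normexp and 0.07 with the slide as a block. Leaving out 1 array at a time gave -0.01 to 0.34 for MMP9 at 24 h, -0.06 to 0.21 for the media difference of MMP14 at 48 h, -0.05 to 0.08 for that TIMP2 change and -0.13 to 0.01 for that TIMP1 difference. The cause was not tested. As an alternative chosen after seeing the data, siControl replicate 1 at 48 h in growth media was also left out of the fit for the comparisons it is not part of, and no call of a member changed there; it was then left out for the other gene lists too.

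The number of members called at 24 h was 4 in place of 2 with the adjusted p alone, and the number changed by media in siControl cells at 48 h was 8 in place of 5. With normexp, the knockdown change of 3 members differed between media at 96 h, in place of 5. All other counts stayed within 1.5 times under these alternatives, and leaving out 1 array gave 7 to 8 at 48 h in growth media and 4 to 5 for both the media change and the media difference at 48 h, with no change in the others. With the replicate number as a block, the counts were 2, 8, 7, 8 and 8 for the knockdown, and 4 in place of 5 for the media difference at 48 h, where MMP11 was not called (adjusted p = 0.0858); TIMP1 at 96 h turned to 0.01. Within single slides, 81 of 81 knockdown values after 24 h had the direction of the fit over all arrays. This had to be so, because siControl and siZNF148 arrays did not overlap for any tested member in those comparisons. The 24 h arrays share 1 slide. Each member has 1 probe, so averaging probes gives no other value. Signal over background limits MMP10, MMP11 at 24 h and TIMP3 in siControl cells in differentiation media. MMP3 and MMP9 were well above background on all 29 arrays. Even so, the changes of MMP3 at 96 h and of MMP9 in differentiation media were smaller with normexp, as given above.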
